A study of Schizosaccharomyces pombe with 12 samples.

Results

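The genes described here encode subunits of the 3 nuclear RNA polymerases of Schizosaccharomyces pombe (fission yeast). They were taken by name, as the rows called rpa, rpb or rpc followed by digits, together with nuc1, which encodes the largest subunit of polymerase I. The rule found 30 genes of the 7013 in the files, and used no measured value. Of these, 6 belong to polymerase I alone, 7 to polymerase II alone and 10 to polymerase III alone, while 2 are shared by polymerases I and III and 5 by all 3 enzymes. With the shared subunits counted for each enzyme, the lists hold 13, 12 and 17 genes for polymerases I, II and III. The product names in the reference annotation (build ASM294v3) state the enzyme for all but the 5 genes shared by all 3. For these 5 the product name gives no enzyme, and the assignment follows textbook knowledge of the subunits. A further polymerase I subunit gene, ker1, falls outside the name rule and is given beside the members.

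RNA was sequenced in 4 groups of 3 libraries each, to compare cells with either of 2 altered forms of histone H3, a set2 mutant and the wild type. G34R cells carried histone H3 with arginine, and G34V cells histone H3 with valine, in place of a glycine of the tail. The third mutant, labelled Set2D with wild-type H3, was read as a deletion of set2 and is written set2Δ. Set2 is the enzyme that methylates a lysine close to that glycine. WT cells had wild-type H3 and no label of a set2 mutation. All cultures were grown overnight in rich medium (YES) at 25 °C. No label describes how the H3 alleles were introduced, whether other H3 genes were present, or whether each library stands for its own culture. The p-values therefore measure the spread between these libraries, which may be technical.

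Polymerase I makes the large ribosomal RNA precursor, polymerase II makes messenger RNA and most noncoding RNA, and polymerase III makes transfer RNA and 5S ribosomal RNA. All are built on the same plan: the largest and second-largest subunits form the active site, a pair of subunits related to bacterial alpha holds them together, a stalk emerges from the core, and one subunit helps the enzyme cut RNA when it backtracks. Polymerases I and III carry extra subunits that resemble the separate initiation and elongation factors of polymerase II.

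Gene counts per library lay between 65797517 and 228726069, and the members took 0.437% to 0.472% of them. Each member had between 1308 and 163738 counts per library, so all 30 passed the filter on low counts. Values are CPM, a gene's count relative to the scaled size of its library, computed from the deposited counts with TMM scaling. Within a group, the coefficient of variation of a member ranged from 0.407% to 6.34%, with a median of 2.10%. A gene is called where its adjusted p is under 0.05 in the quasi-likelihood test of edgeR, adjusted by Benjamini and Hochberg's method over the 6602 genes tested. Unless another test is named, every adjusted p below is of that kind. With so little spread, small differences were called, and the share of all genes called is given with the members' count in each comparison. Transcripts of set2 averaged 109.8 ± 1.69 CPM in G34R, 129.98 ± 4.59 CPM in G34V, 3.92 ± 0.391 CPM in set2Δ and 128 ± 5.28 CPM in WT (SD, n = 3 each), in keeping with the label of the set2 mutant.

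In WT cells, genes of the subunits shared by all 3 enzymes had the highest levels per length and genes of polymerase III alone the lowest. Per kb of coding sequence, the median was 350.5 CPM for the 5 shared genes and 71.8 CPM for the 10 genes of polymerase III, against 125 CPM for polymerase I and 116 CPM for polymerase II. The top of the order was rpb10, a small zinc-binding subunit, at 554, 542 and 539 CPM per kb in the 3 WT libraries. Then came rpb6 at a mean of 439 and rpc10 at 350.5 CPM per kb, and the ranges of these 3 genes did not overlap. At the bottom stood rpc1, the largest subunit of polymerase III, at 46.1, 44.4 and 44.6 CPM per kb. The largest subunits of the other enzymes were higher, nuc1 at a mean of 143 and rpb1 at 107 CPM per kb. Many neighbours in the order were not separated: among them rpb5 with rpb11, rpb1 with rpc40, and rpc82 with rpc37 overlapped between libraries. Polymerase III genes lay between 45.0 and 90.4 CPM per kb of coding sequence, a range that of the other members only rpa34, at 55.4, and rpb9, at 79.8, shared. Per kb of annotated exon they lay between 20.9 and 86.3 CPM, and rpb3, rpb7, rpb8, rpa12, rpa49 and rpc19 fell in that range as well as rpa34 and rpb9. The order depends on the length used: per kb of annotated exon, rpb3 moved from rank 10 to 29, rpb8 from 8 to 18 and rpc25 from 24 to 30. At the ends of the order, rpb6 then took rank 1 and rpb10 rank 2, while rpc10 moved from 3 to 7 and rpc1 from 30 to 25. The medians per kb of exon were 161 CPM for the shared genes and 44.2 CPM for polymerase III, against 99.96 CPM for polymerase I and 106 CPM for polymerase II.

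**Figure D1:**
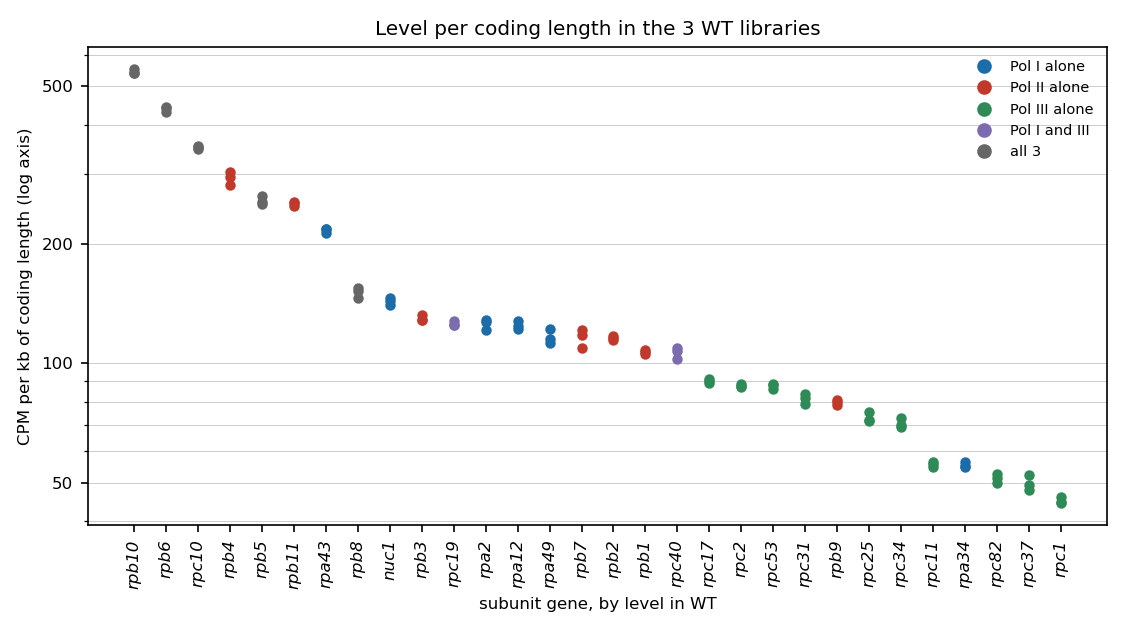
Level of each subunit gene in the 3 WT libraries (points), as CPM per kb of coding sequence on a log axis, ordered by mean and coloured by enzyme. The shared genes rpb10, rpb6 and rpc10 lead the order with means of 545, 439 and 350.5, and 10 of the 12 lowest genes belong to polymerase III. Per kb of annotated exon, which is not plotted, the order differs.

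G34R cells had lower levels than WT of 14 subunit genes and higher levels of 2, so that 53.3% were called, beside 53.4% of all tested genes. Both higher ones, rpc82 and rpc17, belong to polymerase III. The share of lower members, 46.7%, stood beside 26.6% of all tested genes called lower, and that of higher members, 6.67%, beside 26.8% of all genes called higher. Among the 5068 tested coding genes, 32.7% were lower and 18.7% higher. Every change was small: the most negative were rpb8 and rpc31, both at −0.22 on the log2 scale. None of the 30 changed by 1.25-fold, beside 972 of all 6602 genes and 318 of the 5068 coding genes. For 17 members the G34R and WT libraries did not overlap, a share of 56.7%, beside 62.4% of all genes. Lower genes were spread over the enzymes, with 3 of 6 for polymerase I, 2 of 7 for polymerase II, 5 of 10 for polymerase III and 4 of 5 shared by all. The median log2 fold change of the members was −0.05, beside −0.00 over all genes tested and −0.03 over the coding genes, and it was negative under each scaling tried (−0.05 with RLE, −0.04 with upper quartile scaling). With only coding genes in the fit it was smaller, at −0.02.

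G34V cells showed the other balance, with 10 members higher than WT and 2 lower, the lower ones being rpc2 and rpc31 of polymerase III. These are 40% of the members, beside 50.1% of all genes, and the libraries did not overlap for 14 members, beside 57.9% of all genes. Over all tested genes 25.1% were called higher and 25% lower, and among coding genes 19% and 29.8%, beside the members' 33.3% higher and 6.67% lower. Polymerase I genes took 4 of the 10 higher calls, with rpa2, rpa12, rpa34 and rpa49. Of the polymerase II genes, rpb9 alone was called, and of the 5 shared by all 3 enzymes only rpc10. The median log2 fold change of the members was 0.04, beside −0.01 over all genes. With upper quartile scaling the members split into 12 higher and 1 lower, and all genes into 30.8% higher and 17.6% lower.

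In set2Δ cells 11 members were higher than WT and 6 lower, 56.7% in all, beside 70.1% of all genes. The libraries did not overlap for 17 members, beside 71.9% of all genes. Over all genes 34.5% were called higher and 35.6% lower, and over coding genes 27.5% higher and 41.8% lower, beside the members' 36.7% higher and 20% lower. The higher ones included the cleavage-type subunits of all 3 enzymes, rpa12, rpb9 and rpc11. The lower ones were nuc1, rpb3, rpc2, rpc82, rpb5 and rpb6. With rpc2, set2Δ held the only member that changed by 1.25-fold or more in a comparison with WT, beside 1855 of all 6602 genes. The median log2 fold change of the members was 0.04, beside −0.01 over all genes. Under upper quartile scaling 16 members were higher and 4 lower, and all genes split into 40.5% higher and 28.4% lower. With coding genes alone in the fit, 15 members were higher and 4 lower.

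**Figure D2:**
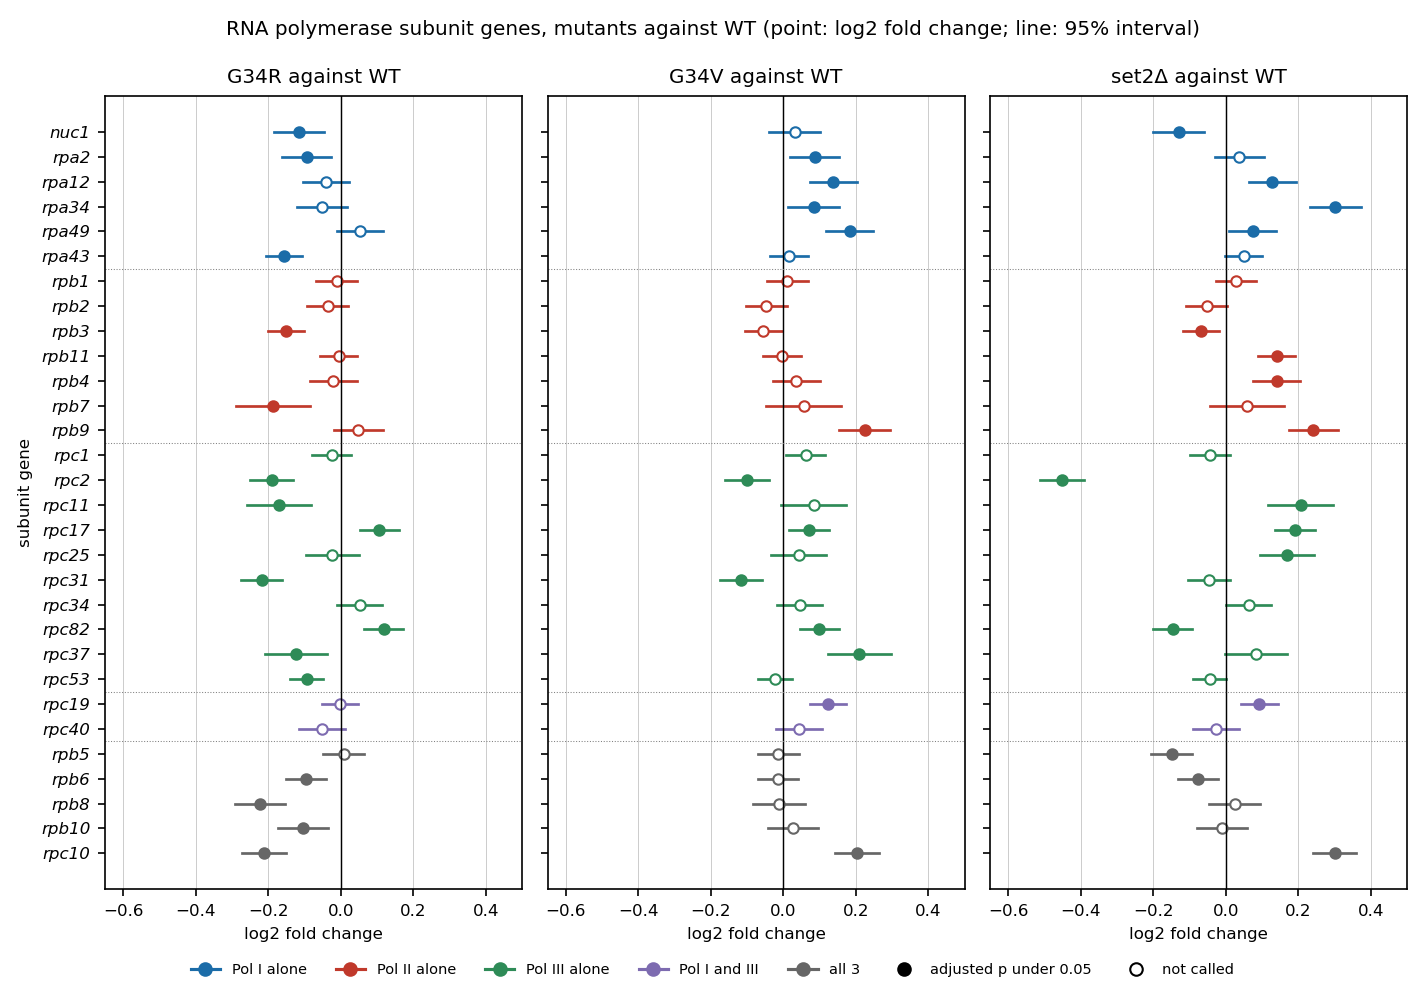
Log2 fold change of the 30 subunit genes in G34R, G34V and set2Δ against WT (points) with 95% intervals (lines), from edgeR's quasi-likelihood fit of 12 libraries, with filled points for adjusted p under 0.05. In G34R 14 genes lie below 0 with filled points and 2 above, in G34V 2 below and 10 above, and in set2Δ 6 below and 11 above, where rpc2 stands furthest out at −0.45.

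The comparisons share the 3 WT libraries, so their calls are not independent. Against WT, 4 members were called in all 3 mutants, 12 in 2 mutants, 9 in 1 mutant and 5 in none. The 4 were rpc17, higher in all 3, rpc2, lower in all 3, rpc10, lower in G34R but higher in G34V and set2Δ, and rpc82, higher in G34R and G34V but lower in set2Δ. Of the others, rpa2 and rpc37 were lower in G34R and higher in G34V, and rpc11 was lower in G34R and higher in set2Δ. Over all tested genes 53.4% were called in G34R, 50.1% in G34V and 70.1% in set2Δ. How many of all genes were called in 1, 2 or all 3 mutants was not counted, so these patterns have no background beside them. In a test of any difference among the 4 groups, 27 of 30 members (90%) were called, beside 88.7% of all genes, and the 3 left out were rpb1, rpb2 and rpc34.

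All 6 genes of polymerase I alone had lower means in G34R than in G34V. The largest subunit gene nuc1 was at 665, 664 and 684 CPM in G34R, 729.9, 736 and 762 CPM in G34V, 658, 643 and 692 CPM in set2Δ, and 740.4, 710.1 and 730.4 CPM in WT. G34R and set2Δ lay wholly below WT, while G34V overlapped it. The log2 fold changes against WT were −0.12 in G34R (SE 0.033, adjusted p = 0.00788) and −0.13 in set2Δ (SE 0.033, adjusted p = 0.0024), against 0.03 in G34V (adjusted p = 0.447). Its partner rpa2, the second-largest subunit, was at 411, 413 and 421 CPM in G34R, 459, 470.0 and 483 CPM in G34V, 445, 447 and 473 CPM in set2Δ, and 453, 429 and 447 CPM in WT. G34R was below WT and G34V above it, and set2Δ overlapped WT. Both calls were near the threshold (G34R −0.09, adjusted p = 0.0197; G34V 0.09, adjusted p = 0.0326) and depended on the setting. The call in G34R was lost without G34R replicate 1 or 2 or WT replicate 1 or 3 (adjusted p of 0.0555 to 0.0961), with upper quartile scaling (−0.08, adjusted p = 0.0556) and with coding genes only (−0.06, adjusted p = 0.102). That in G34V was lost without G34V replicate 2 or 3 or WT replicate 2 (0.0724 to 0.146). In set2Δ, where rpa2 was at 0.04, it was called with upper quartile scaling (0.08, adjusted p = 0.0425).

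The genes rpa34 and rpa49 encode a dimer that, in budding yeast, helps polymerase I to start and elongate. For rpa34 the values were 40.0, 39.9 and 41.1 CPM in G34R, 43.5, 43.4 and 46.6 CPM in G34V, 53.9, 50.3 and 50.9 CPM in set2Δ, and 41.3, 41.7 and 42.6 CPM in WT. All set2Δ libraries lay above every other library, and the log2 fold change of set2Δ against WT was 0.30 (SE 0.033, adjusted p = 5.99e-07). In G34V the change was 0.08 (adjusted p = 0.0453), and that call was lost in 6 of the 12 fits with a library left out (adjusted p of 0.0503 to 0.178 without G34R replicate 2 or 3, G34V replicate 3, set2Δ replicate 3, or WT replicate 1 or 2). The other gene of the dimer, rpa49, was at 154, 151 and 159 CPM in G34R, 166, 168 and 174 CPM in G34V, 154, 161 and 157 CPM in set2Δ, and 148, 144 and 156 CPM in WT. Only G34V lay wholly above WT, with a log2 fold change of 0.18 (SE 0.030, adjusted p = 0.000148). In G34R rpa49 was not called (0.05, adjusted p = 0.146). It was called there without WT replicate 3 (0.09, adjusted p = 0.0203) and with coding genes only (0.08, adjusted p = 0.0366). In set2Δ rpa49 was called at 0.07 (adjusted p = 0.0383), a call lost without set2Δ replicate 2 or 3 or WT replicate 1 or 2 (adjusted p of 0.0733 to 0.18). So set2Δ had the larger change for rpa34 and G34V for rpa49, and between G34V and set2Δ the genes moved in opposite directions, rpa34 by −0.22 (adjusted p = 3.52e-05) and rpa49 by 0.11 (adjusted p = 0.00568).

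The stalk gene rpa43, whose product contacts the initiation factor Rrn3, was at 100.3, 103 and 101 CPM in G34R, 114, 114 and 115 CPM in G34V, 113, 118 and 119.9 CPM in set2Δ, and 114, 111 and 114 CPM in WT. G34R stood below the other 3 groups, at −0.16 against WT (SE 0.024, adjusted p = 6.03e-05). In set2Δ it was 0.05 higher (adjusted p = 0.0761), and called without set2Δ replicate 1 (0.07, adjusted p = 0.00945), with upper quartile scaling (0.09, adjusted p = 0.00352) and with coding genes only (0.08, adjusted p = 0.00587). The cleavage-type subunit rpa12 averaged 43.6 ± 1.40 CPM in G34R, 49.5 ± 1.36 CPM in G34V, 49.1 ± 0.705 CPM in set2Δ and 44.9 ± 1.12 CPM in WT. It was higher than WT in G34V (0.14, adjusted p = 0.00163) and set2Δ (0.13, adjusted p = 0.00133). The stalk partner of rpa43, ker1, averaged 57.4 ± 2.54 CPM in G34R, 67.5 ± 2.57 CPM in G34V, 72.5 ± 2.20 CPM in set2Δ and 58.9 ± 1.37 CPM in WT. It was higher than WT in G34V (0.20, adjusted p = 0.00035) and in set2Δ (0.30, adjusted p = 1.8e-06), but not called in G34R (−0.03, adjusted p = 0.432). The 2 stalk genes of polymerase I thus had different calls in each of the 3 mutants.

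Neither core gene of polymerase II was called in a mutant. Its largest subunit gene rpb1, which carries the C-terminal repeat domain, was at 555, 563 and 550.1 CPM in G34R, 573, 569 and 552 CPM in G34V, 577, 563 and 575 CPM in set2Δ, and 567, 561 and 554 CPM in WT. All mutant groups overlapped WT, and the log2 fold changes were −0.01 in G34R, 0.01 in G34V and 0.03 in set2Δ. The 95% intervals of these were −0.07 to 0.04, −0.04 to 0.07 and −0.03 to 0.08. The second-largest, rpb2, was at 418, 409 and 406 CPM in G34R, 406, 411 and 407 CPM in G34V, 394, 406 and 418 CPM in set2Δ, and 425, 422 and 417 CPM in WT. For rpb2, G34V lay wholly below WT, while G34R and set2Δ overlapped it. Its changes were −0.04, −0.05 and −0.05 in G34R, G34V and set2Δ, none of them called. Without set2Δ replicate 3 that of set2Δ was called at −0.07 (adjusted p = 0.0215), and with upper quartile scaling rpb1 was called in set2Δ at 0.07 (adjusted p = 0.0234), as it was with coding genes only at 0.06 (adjusted p = 0.0324).

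The smaller polymerase II genes varied more. The cleavage and fidelity subunit rpb9 was at 27.4, 27.9 and 29.3 CPM in G34R, 30.9, 32.0 and 33.0 CPM in G34V, 32.1, 32.3 and 32.4 CPM in set2Δ, and 27.4, 27.6 and 26.9 CPM in WT. G34V and set2Δ lay above WT, at 0.22 (SE 0.033, adjusted p = 4.73e-05) and 0.24 (SE 0.032, adjusted p = 6.59e-06), while G34R overlapped WT at 0.05 (adjusted p = 0.22). Of the assembly pair, rpb11 was at 94.4, 92.1 and 94.0 CPM in G34R, 93.5, 93.4 and 94.1 CPM in G34V, 100.1, 107 and 104 CPM in set2Δ, and 94.3, 92.6 and 94.8 CPM in WT. Only set2Δ stood apart, 0.14 above WT (SE 0.024, adjusted p = 8.01e-05). The other member of that pair, rpb3, was lower in G34R, at 105 ± 2.38 CPM against 116 ± 2.04 CPM in WT (−0.15, adjusted p = 7.74e-05). In set2Δ its call (−0.07, adjusted p = 0.0187) was lost without set2Δ replicate 1 or 2 or WT replicate 3 (0.051 to 0.0816), and with upper quartile scaling (−0.03, adjusted p = 0.402). That call was also lost with coding genes only (−0.03, adjusted p = 0.229) and in the fit of set2Δ and WT alone (−0.06, adjusted p = 0.0611). The stalk genes also parted: rpb7 was lower in G34R (−0.19, adjusted p = 0.00442) and rpb4 higher in set2Δ (0.14, adjusted p = 0.00069).

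In polymerase III the second-largest subunit gene rpc2 had the largest change of any member against WT, and the largest subunit gene did not follow it. The values of rpc2 were 272, 269 and 267 CPM in G34R, 279, 284 and 297 CPM in G34V, 226, 217 and 232 CPM in set2Δ, and 311, 307 and 305 CPM in WT. All 9 mutant libraries were below all WT libraries, and set2Δ was below the other 2 mutants as well. Against WT the log2 fold changes were −0.19 in G34R (SE 0.028, adjusted p = 4.5e-05), −0.10 in G34V (SE 0.028, adjusted p = 0.00809) and −0.45 in set2Δ (SE 0.028, adjusted p = 9.89e-10). With upper quartile scaling the call in G34V was lost (−0.07, adjusted p = 0.0716). The level of rpc1, by contrast, was 184, 188 and 188 CPM in G34R, 194, 199.8 and 200.3 CPM in G34V, 180.2, 182 and 191 CPM in set2Δ, and 195, 187 and 188 CPM in WT. Each mutant overlapped WT, and the changes of −0.03, 0.06 and −0.04 in G34R, G34V and set2Δ were not called. The 0.06 of G34V was close to the threshold (adjusted p = 0.06) and was called without G34V replicate 1, set2Δ replicate 3 or WT replicate 1 (0.0332 to 0.044) and in 6 other settings, RLE and upper quartile scaling among them. In set2Δ the change was called without set2Δ replicate 3 (−0.07, adjusted p = 0.0235).

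Genes rpc82, rpc34 and rpc31, encode a subcomplex of polymerase III that takes part in initiation, and each had a pattern of its own. For rpc82 the values were 97.4, 98.5 and 100.3 CPM in G34R, 97.5, 97.1 and 98.1 CPM in G34V, 83.4, 83.8 and 79.8 CPM in set2Δ, and 88.5, 91.3 and 93.3 CPM in WT. Both histone mutants lay above WT and set2Δ below it, with log2 fold changes of 0.12 in G34R (SE 0.025, adjusted p = 0.00107), 0.10 in G34V (SE 0.025, adjusted p = 0.00424) and −0.15 in set2Δ (SE 0.025, adjusted p = 9.48e-05). For rpc31 they were 45.6, 44.3 and 43.5 CPM in G34R, 48.0, 46.9 and 48.0 CPM in G34V, 50.2, 50.3 and 49.7 CPM in set2Δ, and 50.1, 51.8 and 53.1 CPM in WT. G34R was lowest, at −0.22 (SE 0.027, adjusted p = 8.15e-06), then G34V at −0.12 (SE 0.027, adjusted p = 0.0024), while set2Δ overlapped WT (−0.05, adjusted p = 0.136). The middle gene, rpc34, averaged 66.4 ± 0.833 CPM in G34R, 66.2 ± 2.34 CPM in G34V, 66.9 ± 1.45 CPM in set2Δ and 64.1 ± 1.78 CPM in WT, and was not called in any comparison as fitted. With coding genes only it was called in G34R (0.08, adjusted p = 0.0323). Its change of 0.06 in set2Δ (adjusted p = 0.0633) was called in 4 of the 12 fits with a library left out, those without set2Δ replicate 1, WT replicate 3, G34R replicate 1 or G34V replicate 3 (adjusted p of 0.0203 to 0.0497), and in 5 other settings, reaching 0.11 with upper quartile scaling (adjusted p = 0.00683).

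The dimer of rpc37 and rpc53 serves termination and reinitiation by polymerase III, as known from budding yeast. The values of rpc37 were 33.4, 33.1 and 33.4 CPM in G34R, 40.6, 40.6 and 45.2 CPM in G34V, 38.4, 39.2 and 37.9 CPM in set2Δ, and 34.8, 35.9 and 38.1 CPM in WT. G34R was below and G34V above WT, at −0.12 (SE 0.040, adjusted p = 0.0161) and 0.21 (SE 0.041, adjusted p = 0.000564). The call in G34R was lost without G34R replicate 2 or WT replicate 3 (0.0523 and 0.0902) and with coding genes only (−0.09, adjusted p = 0.0711). Without WT replicate 3 rpc37 was called in set2Δ (0.12, adjusted p = 0.0179), as it was without G34V replicate 3 (0.09, adjusted p = 0.0195) and with upper quartile scaling (0.13, adjusted p = 0.0173). Its partner rpc53 was lower in G34R (−0.09, adjusted p = 0.0018) and not called in G34V (−0.02) or set2Δ (−0.04). The cleavage and termination subunit rpc11 averaged 16.3 ± 0.229 CPM in G34R, 19.5 ± 0.887 CPM in G34V, 21.1 ± 1.09 CPM in set2Δ and 18.3 ± 0.257 CPM in WT, lower in G34R (−0.17, adjusted p = 0.00289) and higher in set2Δ (0.21, adjusted p = 0.000381). In G34V it was called without G34V replicate 1 (0.13, adjusted p = 0.0309) and with upper quartile scaling (0.11, adjusted p = 0.0471). Of the stalk pair, rpc17 was higher in G34R (0.11, adjusted p = 0.0025), G34V (0.07, adjusted p = 0.0316) and set2Δ (0.19, adjusted p = 6.9e-06), though the call in G34V was lost without G34V replicate 1 or 3 or WT replicate 1 or 3 (0.0605 to 0.0909). The other stalk gene, rpc25, was higher in set2Δ alone among the comparisons with WT (0.17, adjusted p = 0.00048).

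Of all 30 members, rpc10 had the lowest adjusted p for any difference among the groups (8.93e-10). It encodes a small zinc-binding subunit of all 3 polymerases, and its values were 58.5, 57.7 and 58.0 CPM in G34R, 76.0, 75.2 and 81.5 CPM in G34V, 82.6, 84.9 and 81.2 CPM in set2Δ, and 67.3, 66.8 and 67.8 CPM in WT. G34R lay below WT while G34V and set2Δ lay above it, with no overlap. The log2 fold changes against WT were −0.21 in G34R (SE 0.028, adjusted p = 1.76e-05), 0.20 in G34V (SE 0.029, adjusted p = 3.41e-05) and 0.30 in set2Δ (SE 0.028, adjusted p = 1.34e-07). No call of rpc10 against WT was lost in any setting tried. Also shared by all 3 polymerases, rpb8 was at 47.8, 48.7 and 50.3 CPM in G34R, 54.1, 57.7 and 58.6 CPM in G34V, 58.3, 56.6 and 59.3 CPM in set2Δ, and 58.5, 57.5 and 55.4 CPM in WT. Only G34R stood apart from WT (−0.22, SE 0.033, adjusted p = 4.35e-05).

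The other shared genes moved less. In G34R rpb6 was lower (−0.10, adjusted p = 0.00618), and so was rpb10 (−0.10, adjusted p = 0.014), whose call was lost without G34R replicate 2 or WT replicate 1 (0.0668 and 0.0615) and with coding genes only (−0.07, adjusted p = 0.0749). In set2Δ rpb5 was lower, at 147 ± 1.04 CPM against 163 ± 3.82 CPM in WT (−0.15, adjusted p = 0.000135). There rpb6 was lower too (−0.08, adjusted p = 0.0169), a call lost without set2Δ replicate 1 or WT replicate 1 (0.0635 and 0.0848) and with upper quartile scaling (−0.03, adjusted p = 0.339). That call was also lost with coding genes only (−0.04, adjusted p = 0.184). Of the pair that holds both polymerases I and III together, rpc19 was higher in G34V (0.12, adjusted p = 0.000576) and set2Δ (0.09, adjusted p = 0.00266). The other, rpc40, was not called in any mutant against WT, with changes of −0.05, 0.04 and −0.03 in G34R, G34V and set2Δ, though without WT replicate 2 it was called in G34R (−0.08, adjusted p = 0.0499).

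**Figure D3:**
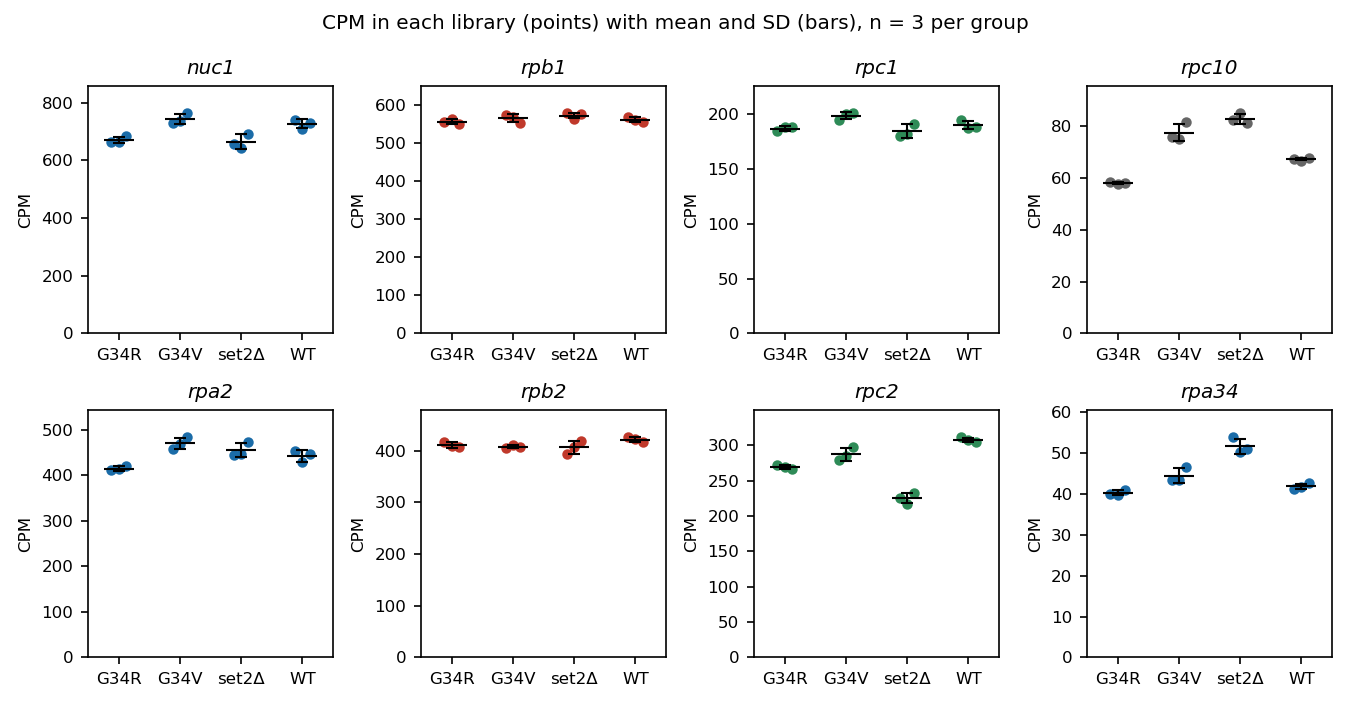
CPM in each library (points) with the mean and SD (bars, n = 3) for the largest and second-largest subunit genes of each polymerase and for rpc10 and rpa34, in G34R, G34V, set2Δ and WT, with every axis starting at 0. For rpb1 the 4 groups overlap between 550.1 and 577 CPM, whereas rpc2 falls to 217 to 232 CPM in set2Δ, against 305 to 311 CPM in WT.

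The ratio of the 2 core subunits of an enzyme was followed per coding length, in which each gene serves as the other's scale. For rpc1 over rpc2 it was 0.574 ± 0.012 in G34R, 0.573 ± 0.012 in G34V, 0.680 ± 0.016 in set2Δ and 0.512 ± 0.007 in WT (SD, n = 3 each), and no mutant library overlapped a WT library. For nuc1 over rpa2 it was 1.12 ± 0.006 in G34R, 1.10 ± 0.008 in G34V, 1.02 ± 0.015 in set2Δ and 1.14 ± 0.009 in WT, again with no overlap between a mutant and WT. For rpb1 over rpb2 the means were 0.935 ± 0.017 in G34R, 0.956 ± 0.020 in G34V, 0.972 ± 0.034 in set2Δ and 0.919 ± 0.001 in WT, and 1 G34R library, at 0.918, lay among the WT values of 0.917 to 0.920. These ratios were not tested beyond the fits of the single genes.

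Set against each other, the histone mutants differed in 21 of the 30 members, and all 21 were lower in G34R than in G34V. Over all tested genes 25.3% were called lower and 25.2% higher in that comparison, 50.5% together, and the libraries did not overlap for 22 members, beside 60.7% of all genes. All 6 genes of polymerase I alone were among the 21, at −0.13 to −0.18, and so were both genes shared by polymerases I and III, 4 of the 5 shared by all, 6 of 10 of polymerase III and 3 of 7 of polymerase II. The largest difference was that of rpc10 (−0.42, SE 0.029, adjusted p = 2.55e-08), followed by rpc37 (−0.33, SE 0.041, adjusted p = 1.09e-05), and the libraries did not overlap for either. Next by adjusted p were rpa43 (−0.17, SE 0.024, adjusted p = 3.81e-05) and rpb8 (−0.21, SE 0.033, adjusted p = 0.000123). The 9 genes without a call included rpb1 (−0.02), rpb2 (0.01), rpb11 (−0.00), rpc17 (0.03), rpc34 (0.01), rpc82 (0.02) and rpb5 (0.02). No member was called higher in G34R under any setting tried, and the lower count ranged from 18 to 21 as single libraries were left out. The calls of rpb6, rpc2, rpc40 and rpc53 were those lost, rpb6 and rpc2 without G34R or G34V replicate 3 (adjusted p of 0.0514 to 0.0852), rpc40 without G34R or G34V replicate 2 (0.051 and 0.0681), and rpc53 without G34R replicate 3 (0.0593).

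G34R also lay below set2Δ in 18 members and above it in 3, beside 35.4% of all genes called lower and 34% higher, 69.4% together. The libraries did not overlap for 22 members, beside 72% of all genes. The 3 higher were rpc82 (0.26, SE 0.025, adjusted p = 1.88e-07), rpc2 (0.26, SE 0.028, adjusted p = 7.65e-07) and rpb5 (0.16, SE 0.027, adjusted p = 8.82e-05). At −0.51, rpc10 showed the widest gap of any member in any comparison (SE 0.029, adjusted p = 2.77e-10), and rpc11 followed at −0.38 (adjusted p = 9.98e-07) and rpa34 at −0.36 (adjusted p = 1.1e-07). The call of rpb10 (−0.09, adjusted p = 0.0187) was lost without G34R replicate 2 or set2Δ replicate 3 (0.0809 and 0.136), and rpc53 (−0.05, adjusted p = 0.051) was called without G34R replicate 1, G34V replicate 3 or WT replicate 1 (0.0153 to 0.0404) and in 5 other settings, reaching −0.08 with upper quartile scaling (adjusted p = 0.00817).

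G34V and set2Δ differed in both directions, with 7 members higher in G34V and 8 lower, beside 29.6% and 32.8% of all genes, 62.5% together. The libraries did not overlap for 16 members, beside 64.9% of all genes. The higher were nuc1, rpa49, rpc1, rpc2, rpc82, rpc37 and rpb5, led by rpc2 (0.35, SE 0.028, adjusted p = 3.75e-08) and rpc82 (0.25, SE 0.026, adjusted p = 6.39e-07). The lower included rpa34 and rpb11 (−0.14, SE 0.024, adjusted p = 9.36e-05), together with rpb4, rpc11, rpc17, rpc25, rpc31 and rpc10. The median of the members, 0.01, changed sign to −0.01 with upper quartile scaling. Calls of rpc11, rpc31 and rpc37 were lost without single libraries, rpc11 on leaving out G34V replicate 1 or set2Δ replicate 3 (adjusted p = 0.14 in both), rpc37 on leaving out G34V replicate 3 or set2Δ replicate 3 (0.0854 and 0.0517), and rpc31 on leaving out any of 6 of the 12 libraries, namely G34R replicate 2, G34V replicates 1 and 2 and all 3 of set2Δ (0.0507 to 0.128). The call of rpc31 (−0.07, adjusted p = 0.0383) was also lost with RLE scaling, DESeq2, limma-voom and the fit of these 2 groups alone (adjusted p of 0.0503 to 0.0608), and that of rpc11 in the last of these (0.061). Leaving out single libraries added calls of rpa2, rpa43, rpb10, rpb6 and rpc40, those of rpb10 and rpa2 without set2Δ replicate 3 (0.0407 and 0.0457), rpa43 without set2Δ replicate 1 (0.0388), rpb6 without G34V replicate 1 (0.0135) and rpc40 without set2Δ replicate 3 or WT replicate 2 or 3 (0.0243 to 0.0441).

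**Figure D4:**
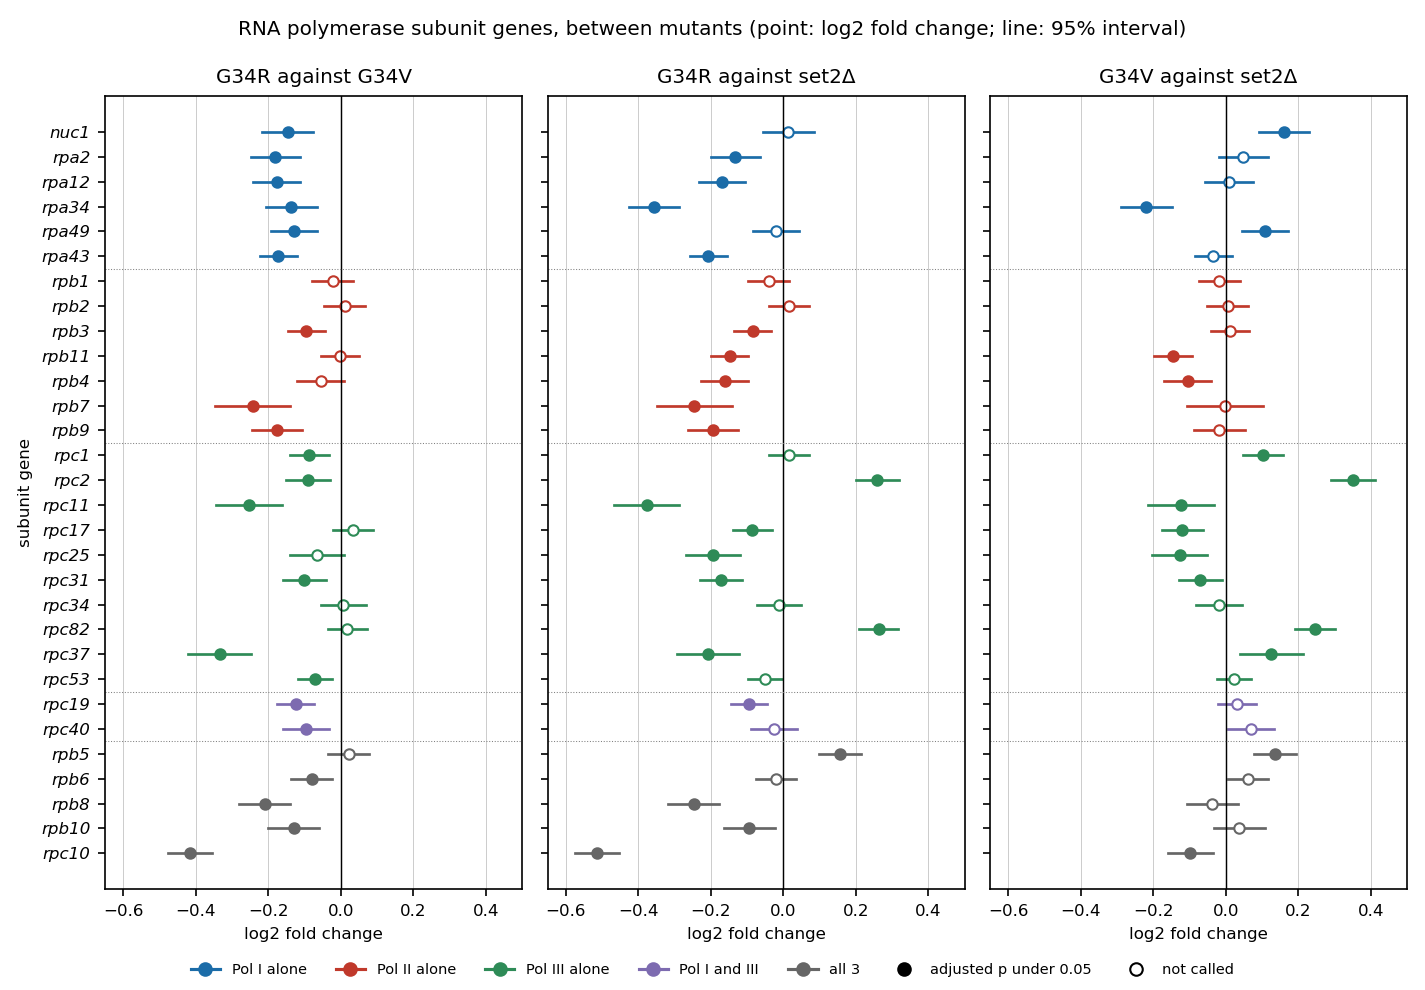
Log2 fold change of the 30 subunit genes between mutants, G34R against G34V, G34R against set2Δ and G34V against set2Δ (points), with 95% intervals (lines) and filled points for adjusted p under 0.05. No filled point lies above 0 for G34R against G34V, where 21 lie below, and rpc10 reaches −0.51 for G34R against set2Δ.

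Corresponding subunits of the 3 enzymes did not always share a call in the positions given here. How often unrelated genes differ in their calls was not counted. In the cleavage position, rpa12, rpb9 and rpc11 were all higher in set2Δ, at 0.13, 0.24 and 0.21, but in G34R they were at −0.04 (not called), 0.05 (not called) and −0.17 (called lower). In G34V they were at 0.14 (called higher), 0.22 (called higher) and 0.08 (not called). In the position of the second-largest subunit, rpa2, rpb2 and rpc2 were at 0.04, −0.05 and −0.45 in set2Δ, of which only the last was called, apart from the call of rpa2 with upper quartile scaling given above. For the largest subunits nuc1, rpb1 and rpc1 the values in set2Δ were −0.13, 0.03 and −0.04, with only the first called.

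In set2Δ the shorter members had the higher median change. Of all tested coding genes 27.5% were higher and 41.8% lower in set2Δ, against 18.7% higher and 32.7% lower in G34R, and 19% higher with 29.8% lower in G34V. Of the 21 members with under 1000 bases of coding sequence, 10 were higher and 3 lower in set2Δ than in WT (median 0.08), and of the 9 of 1000 bases or more 1 was higher and 3 lower (median −0.04). In G34R, 1 of the 21 shorter genes was higher and 11 were lower (median −0.09), and 1 of the 9 longer genes was higher and 3 were lower (median −0.04). In G34V the shorter genes gave 7 higher and 1 lower and the longer 3 higher and 1 lower, with medians of 0.04 in both. Across the 30 members, Spearman's rho between log2 fold change and coding length was 0.15 in G34R, −0.25 in G34V and −0.58 in set2Δ. Across the 5068 tested coding genes it was 0.06, −0.04 and −0.16 in the same order. These are correlations across genes measured in the same libraries, and genes are not independent replicates. The part of length in the changes of the members was not tested.

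**Figure D5:**
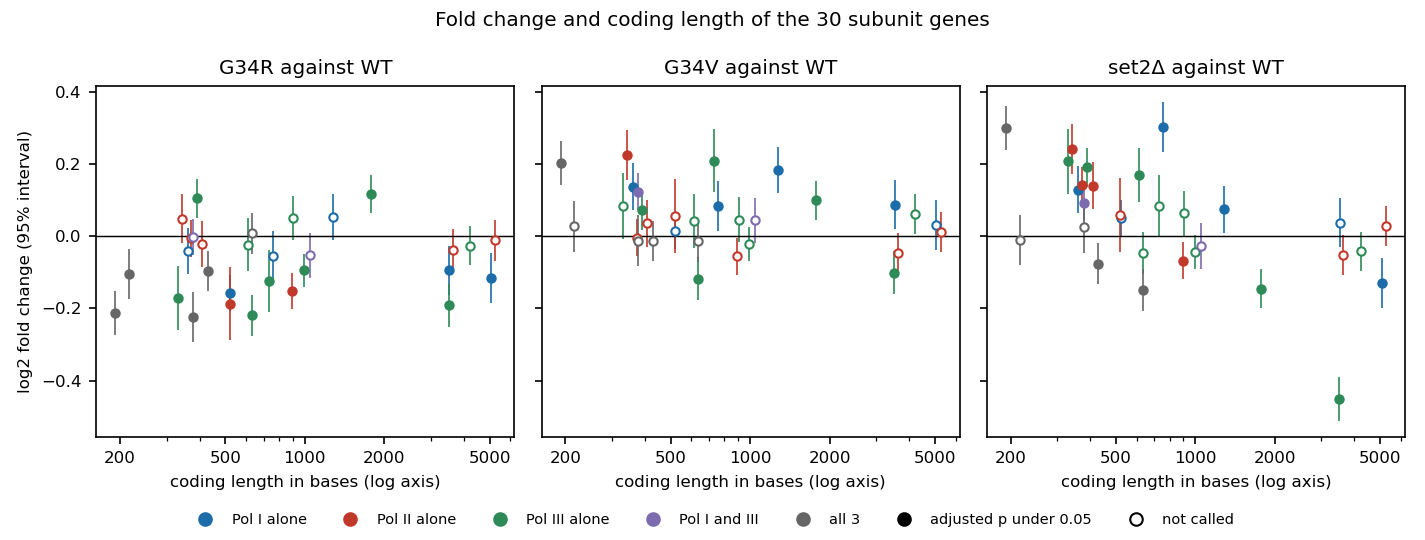
Log2 fold change against WT with its 95% interval, plotted against coding length on a log axis for the 30 members, in G34R, G34V and set2Δ, coloured by enzyme and filled where called. In set2Δ the shortest gene, rpc10, is at 0.30 and rpc2, of 3498 bases, at −0.45.

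Some members lie opposite noncoding RNAs that have rows of their own. By name or by the positions in the reference annotation these were antisense RNAs of rpa43 and rpc37, SPNCRNA.1228 at rpb3, SPNCRNA.1496 at rpb8 and SPNCRNA.1021 at rpb9. In G34R all 5 were higher than WT, beside 53.5% higher and 6.39% lower among the 1534 tested rows not matched to a coding gene. Opposite rpb8, SPNCRNA.1496 stood at 10.4 ± 0.346 CPM in G34R, against 7.30 ± 0.335 CPM in WT (0.51, adjusted p = 1.26e-06), while rpb8 itself was lower. Opposite rpb9, SPNCRNA.1021 stood at 22.7 ± 0.989 CPM in G34R, against 15.8 ± 0.486 CPM in WT (0.52, adjusted p = 2.74e-07), while rpb9 was not called. In set2Δ SPNCRNA.1228 was lower (−0.53, adjusted p = 3.7e-07), and the sense gene rpb3 was at −0.07 there, with the library-dependent call given above. The antisense RNA of rpc37 was higher in set2Δ (0.33, adjusted p = 1.39e-05), as it was in G34R (0.30, adjusted p = 7.07e-05) and G34V (0.13, adjusted p = 0.0322). In G34R the sense gene was called lower and its opposite-strand RNA higher at 4 of the 5 places. These were rpb8, rpb3 (antisense 0.19, adjusted p = 0.00484), rpa43 (antisense 0.21, adjusted p = 0.00785) and rpc37, whose own call depended on the libraries. The share of such pairs over all genes was not counted, and 32.7% of all tested coding genes were called lower in G34R. Other groups differed: rpc37 (0.21) and its antisense RNA were both called higher in G34V. With rpb9 higher in set2Δ, SPNCRNA.1021 averaged 17.8 ± 0.532 CPM there, against 15.8 ± 0.486 CPM in WT. No link between sense and antisense levels was tested. On the same strand, rpb9 overlaps mid2, rpc25 overlaps hmt2 and rpc34 overlaps SPNCRNA.1251, so reads in the overlaps of these 3 may not have been assigned to either gene.

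The 2 coding neighbours of rpc2 were lower in set2Δ as well, where 41.8% of all tested coding genes were called lower. Its coding neighbours are arg11, an arginine synthesis gene, and mug133, a gene with little RNA here. In set2Δ arg11 averaged 499 ± 9.12 CPM, against 667 ± 9.47 CPM in WT (−0.42, SE 0.026, adjusted p = 1.01e-09), and mug133 averaged 3.05 ± 0.137 CPM, against 5.26 ± 0.098 CPM in WT (−0.79, SE 0.070, adjusted p = 5.53e-08). In G34R arg11 was lower (−0.16, adjusted p = 0.000118) and mug133 higher (0.25, adjusted p = 0.00343), and in G34V arg11 was higher (0.08, adjusted p = 0.0236) and mug133 not called (−0.04, adjusted p = 0.674). These 2 neighbours are given because rpc2 changed most, after its values were seen. Neighbours of other members did not always move with the member. Beside rpc25, which was higher in set2Δ, hbs1 averaged 64.2 ± 2.10 CPM in set2Δ, against 98.8 ± 2.40 CPM in WT. Neighbours of the remaining members are not set out here, and a link between a member and its neighbours was not tested.

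Factors that work with the polymerases were given from lists, of which the 2 genes with the lowest p per list and mutant are named. Their counts stand beside the shares of coding genes called: in G34R 18.7% were higher and 32.7% lower, in G34V 19% higher and 29.8% lower, and in set2Δ 27.5% higher and 41.8% lower. For polymerase I, 3 of 8 factor genes were higher and 1 lower in G34R, 1 higher and none lower in G34V, and 2 higher and 2 lower in set2Δ. Of these, rrn10 and rrn7 encode factors that bind the ribosomal DNA promoter: in G34R rrn10 was at 0.21 (adjusted p = 1.95e-05) and rrn7 at 0.17 (adjusted p = 5.77e-05). In G34V rrn10 was at 0.18 (adjusted p = 0.000119) and hmo1 not called (0.06, adjusted p = 0.0518), and in set2Δ rrn7 was higher (0.11, adjusted p = 0.00153) and reb1, which acts in termination, lower (−0.16, adjusted p = 7.48e-05). For polymerase III, 2 of 8 tested factor genes were higher and 1 lower in G34R, 3 higher and 2 lower in G34V, and 4 higher and 2 lower in set2Δ. A ninth gene of the list, sfc7, did not pass the count filter. Of the TFIIIC subunits, sfc3 was higher by a like amount in each, at 95.7 ± 0.916 CPM in G34R, 95.99 ± 1.42 CPM in G34V and 95.4 ± 1.14 CPM in set2Δ, against 80.3 ± 0.541 CPM in WT (0.25, 0.26 and 0.25, adjusted p = 1.15e-07, 9.89e-08 and 2.68e-08). In set2Δ sfc6, also of TFIIIC, was at 85.0 ± 0.675 CPM, against 59.9 ± 0.762 CPM in WT (0.51, adjusted p = 1.23e-11). The TFIIIB gene bdp1 was lower in G34V (−0.31, adjusted p = 6.03e-06), and sfc4 lower in G34R (−0.18, adjusted p = 0.00107). In set2Δ bdp1 averaged 18.6 ± 0.610 CPM, near its 18.9 ± 0.643 CPM in G34V, against 23.5 ± 0.660 CPM in WT.

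Among 17 general factor genes of polymerase II, 3 were higher and 6 lower in G34R, 4 higher and 5 lower in G34V, and 5 higher and 9 lower in set2Δ. The gene of TFIIB, sua7, was at 70.0, 71.2 and 64.1 CPM in G34V, against 96.95, 97.5 and 94.5 CPM in WT (−0.49, SE 0.031, adjusted p = 8.19e-09), and tbp1, the TATA-binding protein used by all 3 enzymes, was higher there (0.23, adjusted p = 2.12e-05). In G34R tfb2 of TFIIH was lower (−0.20, adjusted p = 2.94e-05) and tfg3 higher (0.13, adjusted p = 0.00048). In set2Δ ptr8 of TFIIH (−0.24, adjusted p = 9.65e-08) and tfa1 of TFIIE (−0.22, adjusted p = 3.7e-06) were lower. Of 11 kinase and phosphatase genes of the Rpb1 C-terminal domain, 1 was higher and 4 lower in G34R, 3 higher and 3 lower in G34V, and 6 higher and 2 lower in set2Δ. The kinase gene lsk1 was at 172, 169.6 and 169 CPM in set2Δ, against 118, 116 and 119 CPM in WT (0.53, SE 0.019, adjusted p = 1.22e-12), and was higher in G34V too (0.19, adjusted p = 1.32e-06). Of the TFIIH kinase module, mcs2 was lower in set2Δ (−0.46, adjusted p = 1.19e-08) and mcs6 lower in G34R (−0.22, adjusted p = 0.000157) and G34V (−0.21, adjusted p = 0.000287), and the phosphatase gene ssu72 was lower in G34R (−0.24, adjusted p = 0.000329).

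For enzyme assembly, 4 of the 6 listed genes were in the files. The polymerase II import factor gene iwr1 was higher in G34R (0.12, adjusted p = 0.0022), G34V (0.17, adjusted p = 0.000146) and set2Δ (0.32, adjusted p = 6.17e-08). The GTPase gene gpn2 was lower in G34V (−0.15, adjusted p = 0.0303) and set2Δ (−0.45, adjusted p = 2.88e-06), and not called in G34R (−0.08, adjusted p = 0.201). Over these 5 lists the members of each moved in both directions in set2Δ, as the subunit genes did.

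Other features of the libraries moved with the groups. The summed level of 6 meiosis and sporulation genes was 126 to 128 CPM in G34R, 107 to 109.7 CPM in G34V, 119.9 to 123 CPM in set2Δ and 74.6 to 76.5 CPM in WT. Each mutant was called higher than WT for 5 of the 6, beside 18.7%, 19% and 27.5% of coding genes called higher in G34R, G34V and set2Δ, and none of them was at 0 throughout a group. For 5 genes of M cells the sums were 505 to 541, 483 to 500.3, 399 to 399.8 and 339.8 to 383 CPM in the same order of groups, with 5 of 5 genes higher in G34R, 5 of 5 in G34V, and 3 higher and 1 lower in set2Δ. For 3 genes of P cells they were 82.8 to 86.2, 84.3 to 88.7, 102 to 107 and 76.1 to 80.8 CPM, with 2, 3 and 2 genes higher. Reads outside annotated genes took 2.42% in G34R, 2.38% in G34V, 3.26% in set2Δ and 2.02% in WT. Whether the state of the cells or these reads had a part in the changes of the subunit genes was not tested. In RNA from whole cultures, fewer cells that express a gene and less RNA per cell cannot be told apart.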

How the data were processed

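The values used were whole-number read counts per gene, deposited as 1 file per library for 12 libraries. Per the submitters' processing notes, the authors used CASAVA 1.7, cutadapt, STAR, SAMtools and HTSeq with build ASM294v2. No other tool version is given in the sources used here. Libraries were stranded, per the labels' protocols, and made from 2 µg of RNA depleted of ribosomal RNA. Each file held 7013 genes and 5 summary lines, which were left out of library sizes and tests. Every value of set2Δ replicate 3 was even, so that file was also used with its counts halved.

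From these counts, genes were filtered with filterByExpr, which kept 6602 and left out 411, scaled by TMM with factors of 0.972 to 1.04, and fitted in edgeR 4.0.16 (quasi-likelihood, robust, 1 model of 4 group means, 8 residual degrees of freedom) in R 4.3.3. The coefficient of variation between replicates was 3.32%. Adjusted p-values followed Benjamini and Hochberg, over the genes tested in each of 6 comparisons. A count of 3 corresponds to 0.0131 to 0.0456 CPM, a floor that covers counting error only. Lengths, products, introns and neighbours came from build ASM294v3, which differs from the counting build, so no coordinates or sequences are given and promoters were not analysed here.

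The subunit genes and the lists were chosen with earlier results of these data known. Members given with every library value were the 2 largest subunits of each enzyme and, in each comparison, the 4 with the lowest adjusted p and the one with the largest change. Of each factor list, the 2 genes with the lowest adjusted p per mutant were named. Alternatives were other scalings and filters, coding genes only, DESeq2 1.42.0, limma 3.58.1, fits of 2 groups, a threshold of 0.01, and each library left out.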

Additional observations from a re-analysis of the deposited data

How the results depend on the processing

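No called log2 fold change of a subunit gene changed sign in any alternative tried. Counts of calls stayed within 1.5 times those reported except in 2 places: with coding genes only, 4 members in place of 2 were higher in G34R than in WT, and with upper quartile scaling 1 in place of 2 was lower in G34V than in WT. As single libraries were left out, called members ranged from 13 to 17 for G34R against WT, 9 to 13 for G34V against WT, 15 to 19 for set2Δ against WT, 18 to 21 for G34R against G34V, 20 to 22 for G34R against set2Δ and 14 to 16 for G34V against set2Δ. Those with any difference among the groups ranged from 25 to 27. Of the 180 values (30 genes in 6 comparisons), upper quartile scaling ended 4 calls and added 9, coding genes only ended 5 and added 8, DESeq2 ended 1 and added 3, limma-voom ended 2 and added 2, halving set2Δ replicate 3 ended none and added 2, and a threshold of 0.01 ended 18. The median log2 fold change of all genes was furthest from 0 with upper quartile scaling, at 0.04 for set2Δ against WT. No paired analysis was possible because no label ties a library of one group to a library of another. Most calls concern changes of under 1.25-fold in 3 libraries per group.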
